A study of Mus musculus with 8 samples.

Results

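Cytochrome P450 genes of families 1 to 4 were examined in 8 mouse prostate tumors. Members were the genes whose symbol was Cyp, a family number from 1 to 4, a subfamily letter or letters and a gene number, with nothing after it. Of the 38115 genes listed, 73 were members, and 24 of these were expressed by a filter on low counts. The remaining 49 did not pass it, while 18889 of all genes listed did.

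Cytochrome P450 enzymes are haem-containing monooxygenases of the endoplasmic reticulum. They receive their electrons from the flavoprotein Por, with cytochrome b5 as a second donor for some reactions. Families 1 to 3 oxidise drugs, dietary compounds, steroids and other lipids, and family 4 mainly hydroxylates fatty acids. Most members are best known from liver, where ligand-activated receptors such as Ahr, Nr1i2 (PXR), Nr1i3 (CAR) and Ppara control them. In prostate, they are studied for their part in steroid and carcinogen metabolism.

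The tumors came from Myc-CaP, a murine prostate cancer cell line from a mouse whose MYC transgene was driven by a probasin promoter. Androgen sensitive (AS) or castrate resistant (CR) Myc-CaP cells had been placed in the anterior prostate of FVB males. The hosts were intact or had been castrated by surgery beforehand, and no further treatment, age or time was given. There were 2 primary AS, 2 metastatic AS, 2 primary CR and 2 metastatic CR tumors. The labels called the metastases matched but did not say to which primary tumor, and the sites of the metastases were not given in the sources used here. They also did not say that the tumors came from separate animals, so p-values below measure only the spread between these samples. Each phenotype was a single cell line, and the library identifiers of the AS tumors ran separately from those of the CR tumors. Cell line, host state, library handling and phenotype cannot be told apart in this design.

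Total counts ranged from 20905806 in metastatic CR 2 to 91886163 in metastatic AS 2, a 4.40-fold range, so low genes were measured least precisely in metastatic CR 2. Of the prostate markers given here, Hoxb13 was at 6.15 to 48.2 counts per 1000000 counts (CPM) and Krt8 at 36.8 to 721 CPM, while Krt18 and Pbsn did not exceed 0.548 CPM. Metastatic AS 2 and metastatic CR 2 stood apart in genes with few counts. Of 1098 olfactory receptor genes, genes of the olfactory epithelium chosen after the values were seen, these 2 tumors had at least 1 count in 72.6% and 73.8%, and the other 6 tumors in 10.2% to 31.0%. Results that rest on low counts are therefore also given without both tumors.

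The sequences before the start of 4 members are shown first. Cyp2b10, Cyp2c70 and Cyp2t4 were the members that differed between CR and AS tumors, and Cyp1b1 is a textbook target of the aryl hydrocarbon receptor. The letters are from RefSeq (GRCm38.p6), 5′ to 3′ on the strand of the gene, and stop before the first annotated start. Capitals mark matches on either strand to GCGTG, the core bound by the aryl hydrocarbon receptor, or AGGTCA, a nuclear receptor half-site. A match on the opposite strand reads CACGC or TGACCT here. Cyp2b10 is at chr7:25897408-25897619 (plus strand), Cyp2c70 at chr19:40187334-40187536 (minus strand), Cyp2t4 at chr7:27153464-27153713 (plus strand) and Cyp1b1 at chr17:79715062-79715311 (minus strand).
Cyp2b10: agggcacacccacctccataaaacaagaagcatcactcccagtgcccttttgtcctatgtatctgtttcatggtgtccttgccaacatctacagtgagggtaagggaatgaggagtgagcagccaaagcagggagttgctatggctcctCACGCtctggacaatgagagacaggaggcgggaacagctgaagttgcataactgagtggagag
Cyp2c70: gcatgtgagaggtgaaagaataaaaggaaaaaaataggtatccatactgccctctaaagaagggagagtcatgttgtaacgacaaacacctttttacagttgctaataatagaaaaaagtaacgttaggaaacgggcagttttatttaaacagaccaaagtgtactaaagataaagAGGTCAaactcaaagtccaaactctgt
Cyp2t4: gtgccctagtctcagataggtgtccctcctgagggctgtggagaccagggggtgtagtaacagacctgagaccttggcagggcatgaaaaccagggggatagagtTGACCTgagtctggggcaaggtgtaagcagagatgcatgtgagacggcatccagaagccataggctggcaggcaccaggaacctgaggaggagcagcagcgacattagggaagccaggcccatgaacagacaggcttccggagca
Cyp1b1: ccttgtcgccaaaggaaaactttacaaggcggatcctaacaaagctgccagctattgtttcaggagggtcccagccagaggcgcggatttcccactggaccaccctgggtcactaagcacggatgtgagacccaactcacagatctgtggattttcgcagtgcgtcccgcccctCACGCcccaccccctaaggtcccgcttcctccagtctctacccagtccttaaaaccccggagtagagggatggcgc

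In the whole windows of 250 bases before the RefSeq start, GCGTG was found at 2 places in Cyp2b10, the nearer 9 bases before the start, and in Cyp1b1, 76 bases before it. AGGTCA was found 74 bases before the start of Cyp2c70 and 145 bases before that of Cyp2t4. TATAAA, the TATA box, was found in Cyp2c70 only, on the opposite strand 29 bases before the start. None of these motifs overlapped another. The match nearest the start of Cyp2b10 and the TATAAA match lie within the transcripts of GENCODE, whose starts are farther upstream, and are not printed. Over all 32851 RefSeq promoters, windows of this length held GCGTG in 28.2%, AGGTCA in 14.0% and TATAAA in 12.4%. Of the 24 expressed members, 19 had a promoter in that table.

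Most family 1 to 4 genes were near 0 in these tumors. At least 1 count was found for 72 of the 73 members, but only 24 passed the filter and only 19 of those had a count in all 8 tumors. Of all 38115 genes listed, 31875 had a count and 18889 passed the same filter. Family 1 had 3 members, of which 2 were expressed (Cyp1a1 and Cyp1b1). Family 2 had 48, of which 14 were expressed. Family 3 had 7 members, the Cyp3a genes, and 0 were expressed. Family 4 had 15, of which 8 were expressed. Without metastatic AS 2 and metastatic CR 2, 62 members had a count and 11 were at 0, and 24 passed the filter. With any single tumor left out, 26 to 29 passed. Leaving out tumors loosened the filter, which then asked for 1 tumor above its cutoff instead of 2. These counts therefore cannot show whether the 24 expressed members hold without those tumors.

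The expressed members were low, with few exceptions. RPKM, the CPM divided by the exon length of the gene in kilobases, was used to compare genes. The mean over the 8 tumors was above 1 RPKM for 5 members: Cyp2b10 (16.1), Cyp4f16 (2.12), Cyp1b1 (1.37), Cyp2t4 (1.13) and Cyp2c70 (1.09). The other 19 were between 0.0246 (Cyp2b19) and 0.799 RPKM (Cyp4f13). By RPKM, Cyp2b10 ranked 287 of 21171 protein-coding genes in primary AS 1 and 9730 in primary CR 1. It was thus among the more abundant transcripts of the first tumor and an ordinary low transcript of the second.

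**Figure D1:**
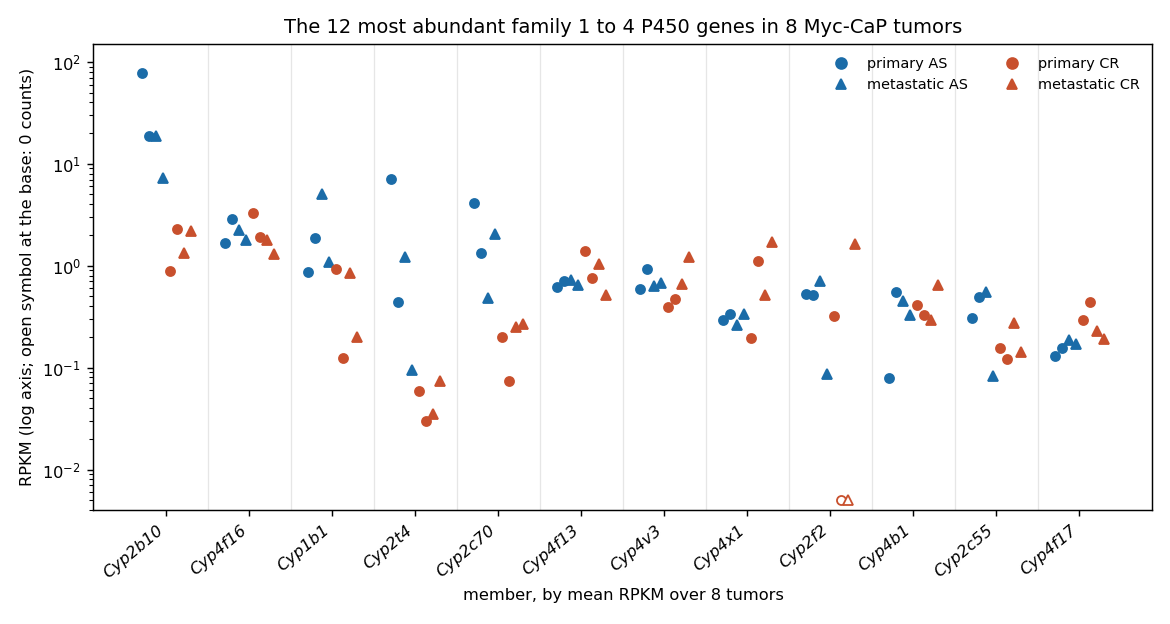
RPKM (log axis) of the 12 members with the highest mean RPKM, with 1 symbol for each tumor (circles primary, triangles metastatic, blue AS, orange CR, open symbols at the base for 0 counts). Cyp2b10, Cyp2t4 and Cyp2c70 are higher in all 4 AS than in all 4 CR tumors, and most other members overlap.

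The first comparison asked how members differed between the CR and AS phenotypes, with tumor type as a term. Of 21 members tested, 3 were lower in CR tumors and 0 were higher (edgeR quasi-likelihood test, Benjamini-Hochberg adjusted p under 0.05 over all genes). Among all 17797 genes tested, 5.72% were lower and 5.66% higher. The 3 were Cyp2b10, Cyp2c70 and Cyp2t4. By the unadjusted p under 0.05, 4 members were lower and 2 higher, where 14.4% and 13.8% of all genes were. DESeq2 called 4 lower, the same 3 and Cyp1b1, and 1 higher, Cyp4x1. Among all 17797 genes it called 3563 in either direction, more than edgeR, which called 2026. The median log2 difference of the members, -0.03, was near that of all genes tested, -0.01, and 10 members had positive and 11 negative differences.

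Cyp2b10 is an enzyme of drug metabolism, known for its strong induction by phenobarbital through Nr1i3 in liver. Its gene lies at chr7:25897620-25926624 on the plus strand. In AS tumors it was at 163 and 39.8 CPM (primary) and 39.8 and 15.4 CPM (metastatic). In CR tumors it was at 1.89 and 4.88 CPM (primary) and 2.79 and 4.65 CPM (metastatic). The lowest AS tumor was above the highest CR tumor, and so the order within primary and within metastatic tumors was the same. The means were 64.6 ± 66.8 and 3.56 ± 1.45 CPM (SD, n = 4 each), 18.2-fold apart, and primary AS 1 was far above the other AS tumors. The log2 difference was -3.90 (SE 0.69, edgeR adjusted p = 0.0132). It was -3.19 without primary AS 1 (adjusted p = 0.0164), and the adjusted p was 0.0524 without metastatic AS 1. Within primary tumors alone the difference was -4.91 (adjusted p = 0.219), and within metastatic tumors alone -2.85 (adjusted p = 0.0443).

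Cyp2b10 also changed the makeup of the whole group. It took 79.1% of all read counts of members in primary AS 1 (95% exact binomial interval 78.4 to 79.8) and 50.4% in primary AS 2 (49 to 51.7). In the metastatic AS tumors it took 42.5% and 34.3%. In CR tumors its share was between 5.45% (4.64 to 6.35) in primary CR 1 and 16.8% (13.9 to 20.1) in primary CR 2. The shares of the AS and CR tumors did not overlap. They are shares of counts, not corrected for gene length, and the intervals cover counting error only. The summed CPM of the other members was 29.5 to 53.9 in AS and 24.1 to 36.7 in CR tumors, so that the ranges overlapped once Cyp2b10 was left out.

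Cyp2c70 is the mouse liver enzyme that makes muricholic acids, a step of bile acid metabolism. Its gene lies at chr19:40153353-40187333 on the minus strand. In AS tumors it was at 8.09 and 2.63 CPM (primary) and 0.962 and 4.07 CPM (metastatic). In CR tumors it was at 0.393 and 0.146 CPM (primary) and 0.495 and 0.526 CPM (metastatic). Again the 2 phenotypes did not overlap. The means were 3.94 ± 3.05 and 0.390 ± 0.172 CPM (SD, n = 4 each), 10.1-fold apart, with a log2 difference of -3.22 (SE 0.68, edgeR adjusted p = 0.0227). The adjusted p was 0.0590 without primary CR 2, 0.0964 without metastatic AS 2 and 0.0559 without metastatic CR 1.

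Cyp2t4 lies at chr7:27153714-27158668 on the plus strand, and is the last member of the Cyp2 cluster that also holds Cyp2b10. In AS tumors it was at 11.7 and 0.734 CPM (primary) and 1.99 and 0.157 CPM (metastatic). In CR tumors it was at 0.0984 and 0.0488 CPM (primary) and 0.0582 and 0.121 CPM (metastatic). The lowest AS tumor was only just above the highest CR tumor. The CR values rest on 14 counts in all (8, 1, 2 and 3), against 949 in the AS tumors, of which 727 were in primary AS 1. The ratio with counts pooled over tumors was 35.0 (95% exact interval 20.8 to 64.3, counting error only), and it rests mainly on that tumor. The log2 difference was -5.16 (SE 1.28, edgeR adjusted p = 0.0353), and -3.38 without primary AS 1 (adjusted p = 0.0707). The adjusted p was also above the threshold without any of primary CR 1 (0.0611), primary CR 2 (0.107), metastatic AS 1 (0.132), metastatic CR 1 (0.0889) or metastatic CR 2 (0.0627). Cyp2t4 shares 0.667% of its exon bases with exons of Egln2 on the other strand, which was lower in CR tumors too (log2 difference -1.12, adjusted p = 0.0253). Whether the counting used strand is not given in the sources used here.

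**Figure D2:**
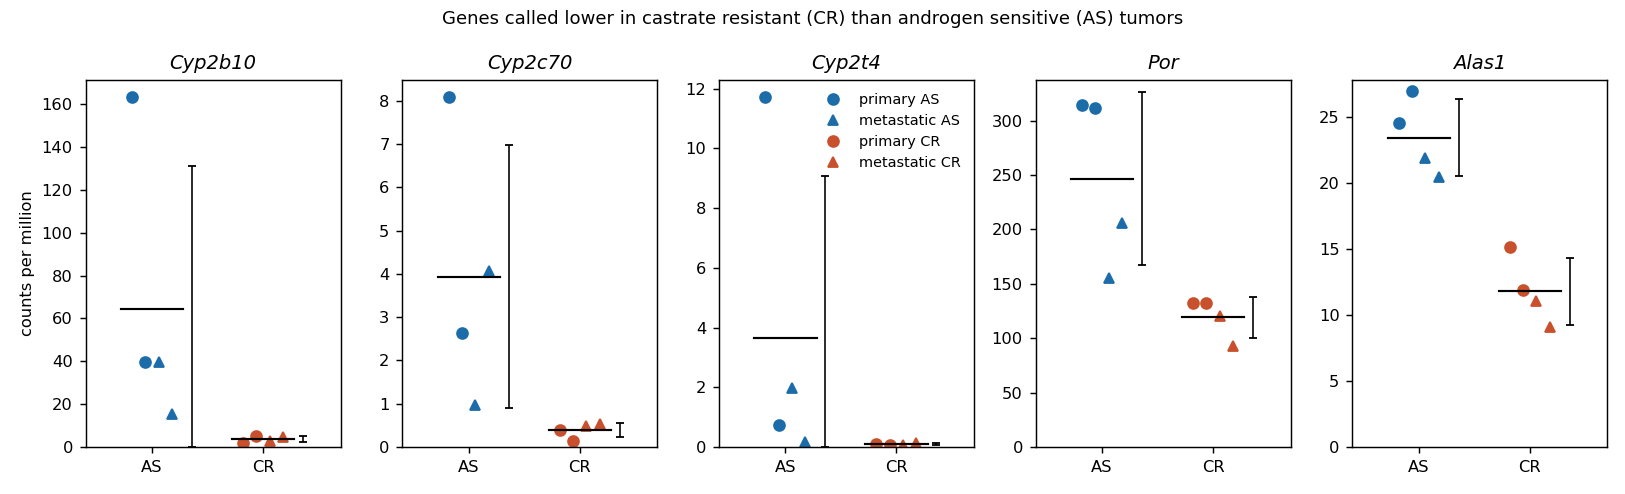
CPM (linear axes from 0) of Cyp2b10, Cyp2c70, Cyp2t4, Por and Alas1 in each tumor (circles primary, triangles metastatic), with the mean of 4 tumors as a line and the SD as a bar that ends at 0 where it would pass it. In each panel all AS tumors lie above all CR tumors, and primary AS 1 is the highest for the 3 Cyp genes.

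The reads of these 3 genes were largely distinct. Of all windows of a read's length along the longest transcript, 13.7% in Cyp2b10 matched another gene with at most 2 mismatches, mostly Cyp2b13, which did not pass the filter. In Cyp2c70 and Cyp2t4, 0 windows did. With metastatic AS 2 and metastatic CR 2 both left out, 1 of the 3 calls remained, Cyp2b10 (log2 difference -4.56, adjusted p = 0.0481). The differences of Cyp2c70 and Cyp2t4 were then -3.14 (adjusted p = 0.133) and -5.90 (adjusted p = 0.0776).

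Genes marking other tissues were measured beside these. In bulk tumor RNA, fewer cells of a type and less RNA per cell cannot be told apart. All 8 hepatocyte markers had a count in some tumor. Their summed level was 3772 to 10523 CPM in AS and 134 to 1958 CPM in CR tumors, without overlap, as for Cyp2b10. Most of the sum in each tumor was Fgb, a fibrinogen chain, at 3713 to 10166 CPM in AS and 89.1 to 1939 CPM in CR tumors. Cps1, a urea cycle enzyme, was at 42.9 to 330 CPM in AS and 5.42 to 38.8 CPM in CR tumors, without overlap (log2 difference -2.51, adjusted p = 0.0393). Ttr, a thyroid hormone carrier, was at 3.29 to 25.4 CPM in AS and 2.21 to 7.13 CPM in CR tumors (log2 difference -1.32, adjusted p = 0.0495). Of the 6 hepatocyte markers tested, 3 were lower in CR tumors (Fgb, Cps1 and Ttr) and 1 was higher (Tat). Among all genes tested, 5.72% were lower and 5.66% higher, and the groups did not overlap for 18.3%. Tat was at 0.158 to 0.290 CPM in AS and 0.984 to 1.98 CPM in CR tumors, without overlap. Its log2 difference was 2.62, and its edgeR adjusted p of 0.0084 was the lowest of the 6. The markers Alb, Apoa1 and Apoa2 did not exceed 3.08, 0.231 and 0.121 CPM, and the highest Alb values were in CR metastases. Krt8, a luminal epithelial keratin, was at 36.8 to 168 CPM in AS and 260 to 721 CPM in CR tumors, without overlap. Other prostate markers did not share this. Krt18, a low gene, had a log2 difference of -0.78 (edgeR adjusted p = 0.264), and Hoxb13 one of 0.60 (adjusted p = 0.524). Both overlapped between AS and CR tumors. The part of these marker differences in the Cyp results was not tested. Summed macrophage (84.0 to 257 CPM), endothelium (43.6 to 92.6 CPM), fibroblast (34.4 to 81.8 CPM) and smooth muscle markers (6.25 to 34.2 CPM) overlapped between AS and CR tumors. Lung, kidney, intestine, adipocyte, T cell and adrenal markers summed to at most 2.39, 6.54, 4.24, 1.31, 1.74 and 2.69 CPM.

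Of the 21 members, 4 did not overlap between CR and AS tumors, where 18.3% of all genes tested did not. They were the 3 above, lower in CR tumors as 9.99% of all genes were, and Cyp4f17, higher as 8.29% were. Cyp4f17, of the fatty acid hydroxylating Cyp4f group, was at 0.419, 0.504, 0.603 and 0.539 CPM in AS and 0.947, 1.42, 0.727 and 0.607 CPM in CR tumors (primary before metastatic). All CR tumors were above all AS tumors, by a narrow margin (log2 difference 0.80, SE 0.37, adjusted p = 0.19).

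Of the steroid and carcinogen metabolising family 1, Cyp1b1, which hydroxylates oestradiol, was at 5.11, 11, 29.3 and 6.40 CPM in AS tumors. In CR tumors it was at 5.48, 0.732, 4.92 and 1.17 CPM, in the same order. Primary CR 1 was above primary AS 1, so the groups overlapped. It differed by -1.91 on the log2 scale (SE 0.73, adjusted p = 0.127), with an adjusted p of 0.0221 by DESeq2 and 0.0248 without primary CR 1. Cyp1a1, the classic gene induced by the aryl hydrocarbon receptor, was between 0.283 and 0.989 CPM, with a log2 difference of -0.08 (SE 0.43).

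The most abundant Cyp4 genes, which code for fatty acid and eicosanoid hydroxylases, were not called and overlapped between CR and AS tumors. Cyp4f16 was at 5.13, 8.91, 6.90 and 5.51 CPM in AS and 10.2, 5.91, 5.50 and 3.97 CPM in CR tumors. Its groups overlapped widely (log2 difference -0.08, SE 0.28, adjusted p = 0.885), and 29.1% of its windows matched another gene. Cyp4f13 was at 2.74, 3.12, 3.19 and 2.86 CPM in AS and 6.26, 3.37, 4.57 and 2.27 CPM in CR tumors, with metastatic CR 2 below all AS tumors (log2 difference 0.47, SE 0.30, adjusted p = 0.342). Cyp4v3, the mouse counterpart of a fatty acid hydroxylase mutated in a human retinal dystrophy, was at 2.27, 3.52, 2.40 and 2.60 CPM in AS tumors. It was at 1.51, 1.81, 2.50 and 4.61 CPM in CR tumors, from below to above the AS range (log2 difference -0.13, SE 0.36).

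Cyp4x1, a member known mainly from brain, was at 1.24, 1.40, 1.09 and 1.41 CPM in AS tumors and at 0.824, 4.69, 2.15 and 7.08 CPM in CR tumors. The 4 AS values were close together, while primary CR 1 lay below them and the other CR tumors above. The log2 difference was 1.48 (SE 0.57, adjusted p = 0.13), with an adjusted p of 0.0352 by DESeq2 and 0.0126 without primary CR 1. Cyp4b1, an oxidase of fatty acids and lung toxicants, was at 0.177, 1.24, 1.03 and 0.736 CPM in AS and 0.922, 0.732, 0.669 and 1.46 CPM in CR tumors, all but 1 of the CR values inside the AS range (log2 difference 0.26, SE 0.55).

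In family 2, Cyp2f2, which activates naphthalene in airway club cells, was at 1.08, 1.04, 1.42 and 0.177 CPM in AS tumors. In CR tumors it was at 0.652, 0, 0 and 3.32 CPM, the 2 zeros being primary CR 2 and metastatic CR 1, where 3 counts would give 0.146 and 0.0873 CPM. The CR tumors thus held both the lowest and the highest values, and the log2 difference was -0.17 (SE 1.30). Cyp2c55, a fatty acid oxidase described in colon, was at 0.613, 0.993, 1.10 and 0.167 CPM in AS and 0.307, 0.244, 0.553 and 0.283 CPM in CR tumors. All CR values lay inside the AS range (log2 difference -1.02, SE 0.61, adjusted p = 0.305). Cyp2s1, an enzyme of surface epithelia, had a log2 difference of 2.11 (SE 0.89, adjusted p = 0.16), resting mainly on metastatic CR 1 (0.669 CPM) and metastatic CR 2 (1.86 CPM) against 0.0322 to 0.209 CPM in the other tumors. Cyp2d22, Cyp2e1, Cyp2j6, Cyp2j13 and Cyp2u1 differed by between -0.33 and 0.42 on the log2 scale, none past the threshold. Cyp4f18 and Cyp2j9 had log2 differences of 1.01 (SE 0.66) and 1.11 (SE 1.09). Cyp4a14, Cyp2ab1 and Cyp2b19 were expressed by the filter on the 4 combinations, at 0 to 0.324 CPM, but had too few counts to be tested here. Cyp4a14 and Cyp2ab1 had at most 7 counts in any tumor and 20 and 26 in total. Their highest CPM values were in the shallow primary CR 2 and metastatic CR 2, from 4 and 7 counts in Cyp4a14 and 6 and 6 in Cyp2ab1. Calling these 2 expressed therefore rests on very few counts.

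**Figure D3:**
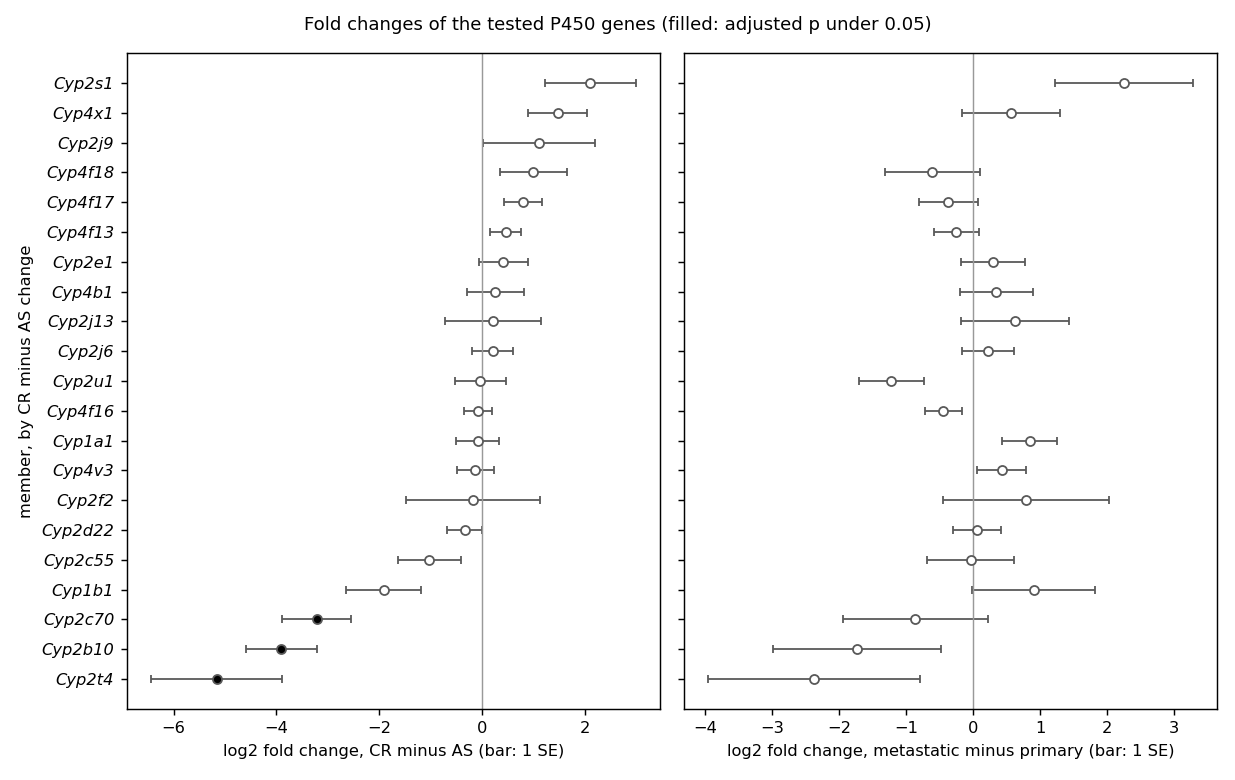
Log2 differences, with 1 SE as bars, of the 21 members tested for CR minus AS (left) and of those also tested for metastatic minus primary (right). Filled points, at an adjusted p under 0.05, are Cyp2t4, Cyp2b10 and Cyp2c70 on the left, and none are on the right.

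Genes that serve P450 enzymes were described in the same comparison. Over all genes tested there, 5.66% were higher and 5.72% lower by the adjusted p, and 13.8% and 14.4% by the unadjusted p. The groups did not overlap for 18.3%. Of the electron donors and their partners, 8 of 9 were listed and 7 tested, with 0 higher and 1 lower in CR tumors (1 and 2 by the unadjusted p). That gene was Por, the reductase that supplies all microsomal P450 enzymes. It was at 314, 311, 155 and 206 CPM in AS and 132, 132, 120 and 92.4 CPM in CR tumors, with no overlap. The log2 difference was -0.99 (SE 0.18, edgeR adjusted p = 0.0146), with an adjusted p of 0.0541 without primary AS 2 and 0.0612 without metastatic AS 2. The median of the 7 was -0.01, the same as over all genes tested.

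Of the 11 haem synthesis and breakdown genes, all tested, 2 were lower and 0 higher, where 5.72% and 5.66% of all genes were. The median log2 difference of the 11 was -0.51, beside -0.01 over all genes tested. Alas1, the rate-limiting enzyme of haem synthesis outside the red cell lineage, was at 24.5, 26.9, 21.9 and 20.4 CPM in AS and 15.2, 11.9, 11 and 9.11 CPM in CR tumors (log2 difference -0.98, SE 0.15, adjusted p = 0.00861). Hmox2, which breaks haem down, had a log2 difference of -1.06 (SE 0.14, adjusted p = 0.00472). Neither gene overlapped between CR and AS tumors, where 18.3% of all genes tested did not.

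Of the 19 regulators of P450 genes, 17 were tested and 0 were called, with 2 called by DESeq2, which called 3563 of all 17797 genes. By the unadjusted p under 0.05, 2 were higher and 1 lower, where 13.8% and 14.4% of all genes were. Ahr was at 3.17 to 4.82 CPM in all tumors (log2 difference 0.23, SE 0.21). Nr1i3, the receptor that induces Cyp2b10 in liver, was at 7.48, 9.02, 10.5 and 15.5 CPM in AS and 12, 5.27, 5.18 and 4.82 CPM in CR tumors, and primary CR 1 lay within the AS range (log2 difference -0.63, SE 0.37, adjusted p = 0.292, and 0.0148 without primary CR 1). Ppara, the fatty acid receptor behind Cyp4a induction, was at 0.647 to 2.97 CPM in AS and 0.342 to 0.553 CPM in CR tumors (log2 difference -1.56, SE 0.50, adjusted p = 0.0796, and 0.0268 by DESeq2). Nr1i2, the receptor behind Cyp3a induction, did not exceed 0.162 CPM and was not tested.

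Of the 15 arachidonate and epoxide genes, 13 were tested, with 2 higher and 1 lower, where 5.66% and 5.72% of all genes were. Ephx4, of the epoxide hydrolase family, was at 0.0257 to 0.0645 CPM in AS and 0.526 to 1.30 CPM in CR tumors (log2 difference 4.52, SE 0.44, edgeR adjusted p = 0.00185). In the AS tumors 3 counts would give 0.0294 to 0.0484 CPM, so the size of this difference rests on very few AS counts. Alox15, a lipoxygenase, was higher by 1.75 (SE 0.39, adjusted p = 0.0276), and Ptges, a prostaglandin E synthase, was lower by a log2 difference of -1.35 (SE 0.21, adjusted p = 0.0095). Of 20 P450 genes of other families, 10 were tested. Beside the same 5.72% lower and 5.66% higher of all genes, 0 of these were lower and 1 was higher. It was Cyp39a1, an oxysterol hydroxylase, at 0.633 to 1.28 CPM in AS and 1.34 to 5.67 CPM in CR tumors (log2 difference 1.54, SE 0.42, adjusted p = 0.0476). The Cyp39a1 and Alox15 calls were lost without either primary AS tumor, primary CR 2, either metastatic AS tumor or metastatic CR 1, with adjusted p of 0.0786 to 0.152 and 0.0532 to 0.0896. Cyp17a1, which makes androgen precursors, did not exceed 0.36 CPM. Without metastatic AS 2 and metastatic CR 2 together, the calls of Hmox2 and Ephx4 were kept, and those of Por (adjusted p = 0.114), Alas1 (0.0752), Ptges (0.077), Alox15 (0.101) and Cyp39a1 (0.121) were lost.

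The second comparison asked how members differed between metastatic and primary tumors. Of 20 members tested, 0 were called in either direction, as were 0% of the 17104 genes tested (edgeR), and 0 by DESeq2. By the unadjusted p under 0.05, 1 member was lower and 0 were higher. Among all genes, 1.12% were lower and 1.56% higher (2.68% in all). DESeq2 gave 2 members at this p, beside 611 of all 17104 genes. The 1 member by edgeR was Cyp2u1, a hydroxylase of long-chain fatty acids. It was at 1.60, 0.46, 1.73 and 0.732 CPM in primary tumors (AS before CR) and at 0.718, 0.383, 0.407 and 0.405 CPM in metastatic tumors. Primary AS 2 lay within the metastatic range (log2 difference -1.22, SE 0.49, edgeR adjusted p = 0.997). No expressed member was free of overlap between metastatic and primary tumors, against 1.67% of all genes (0.789% higher and 0.883% lower).

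In the abundant members, differences between metastatic and primary tumors did not pass the threshold. Cyp2b10 differed by -1.73 on the log2 scale (SE 1.25), Cyp2t4 by -2.38 (SE 1.58) and Cyp2c70 by -0.86 (SE 1.09), with adjusted p = 0.997 for each. All of these signs turned without primary AS 1, with differences of 0.01, 0.95 and 0.51. Cyp1b1 differed by 0.90 (SE 0.91), and by -0.41 without metastatic AS 1. Cyp1a1 was at 0.374 to 0.403 CPM in the 4 primary tumors and at 0.616, 0.863, 0.989 and 0.283 CPM in the metastatic tumors (log2 difference 0.84, SE 0.41, adjusted p = 0.997). The median over the 20 members was 0.14, beside -0.03 over all genes tested. In the 5 lists of related genes, 0 were called between metastatic and primary tumors.

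Whether the difference between metastatic and primary tumors itself differed by phenotype was tested as an interaction. Of 24 members 0 were called, as were 0% of the 18889 genes tested (edgeR), and DESeq2 called 0 members. By the unadjusted p under 0.05, 1 member had a positive term, Cyp2j13 (edgeR adjusted p = 0.964), and 0 a negative one, where 1.2% and 1.54% of all genes did (2.74% in all). The interaction of Cyp2b10 was 2.06 on the log2 scale (SE 1.06, adjusted p = 0.964), with 2 tumors in each combination.

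The 49 members under the filter were looked at by tumor. Their largest count in any tumor was 15 and their largest total over the 8 tumors was 45, in Cyp2r1, a vitamin D 25-hydroxylase (named after its values were seen). The expressed Cyp4a14 and Cyp2ab1 had fewer, at most 7 in any tumor and 20 and 26 in total. Cyp2c68 had 0 counts in every tumor. The number with at least 1 count was 8 and 14 in the primary AS, 5 and 17 in the primary CR, 10 and 36 in the metastatic AS and 16 and 33 in the metastatic CR tumors. Metastatic AS 2 and metastatic CR 2 stood out here as they did in the olfactory receptor genes, and depth did not order the tumors, since these are the deepest and the shallowest. The summed CPM of the 49 was 0.246 (0.15 to 0.38, exact Poisson interval) in primary CR 1 and 4.37 (3.59 to 5.28) in metastatic CR 2. In the 6 other tumors together, 38 of the 49 had a count. No single member of this group is read as expressed or as different between tumors.

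**Figure D4:**
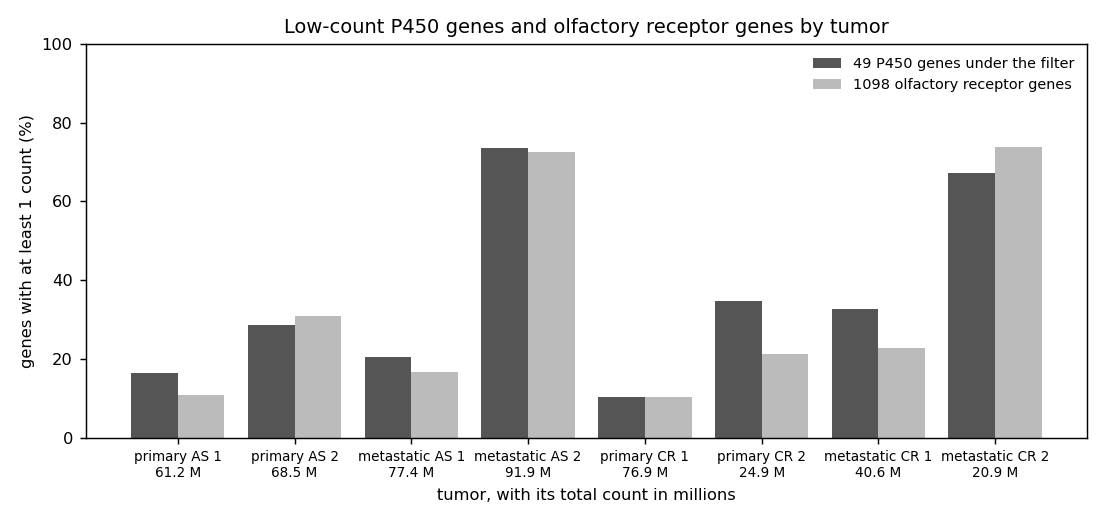
Percent of genes with at least 1 count in each tumor, for the 49 members under the filter (dark bars) and the 1098 olfactory receptor genes (light bars), with the total count under each name. Both kinds of bar are highest in metastatic AS 2 and metastatic CR 2 (67.3% to 73.8%), the deepest and the shallowest tumor.

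The members lie in clusters of related genes, and expression was uneven within them. Members less than 1 Mb apart were joined. A cluster on chromosome 7, from 25802475 to 27158668, held 13 members, of which 5 were expressed: Cyp2s1, Cyp2b10, Cyp2b19, Cyp2f2 and Cyp2t4. Cyp2s1 is the first member of this cluster, with Cyp2b10 next to it, and Cyp2t4 is the last. Between Cyp2b10 and Cyp2t4 lie the expressed Cyp2b19 and Cyp2f2 and members that were not expressed, among them the 4 Cyp2a genes. The Cyp2c cluster on chromosome 19 held 14 members, of which Cyp2c55 and Cyp2c70 were expressed, and these are its first and last members. Of 7 Cyp2j members on chromosome 4, 3 were expressed, as were 3 of 6 Cyp4 members on the same chromosome and 3 of 7 Cyp4f members on chromosome 17. Of 8 Cyp2d members on chromosome 15, only Cyp2d22 was expressed. Of 6 Cyp3a members on chromosome 5, 0 were expressed.

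Genes whose pattern was most like that of the 3 called members were found by Pearson correlation of log2 CPM over the 8 tumors among 18889 genes, as a description. For Cyp2b10 they were 6430548M08Rik (0.991), C6 (0.984) and Klhl18 (0.982). For Cyp2t4 they were Crybg3 (0.975), Nbeal1 (0.970) and Isoc2b (0.970), and for Cyp2c70 Mtr (0.969), Lpgat1 (0.952) and Glis2 (0.951). Among themselves, the correlation was 0.929 for Cyp2b10 and Cyp2t4, 0.822 for Cyp2b10 and Cyp2c70, and 0.740 for Cyp2t4 and Cyp2c70. All points share the same 8 libraries and the AS to CR difference.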

How the data were processed

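RNA of 8 tumors was depleted of ribosomal RNA and sequenced in pairs on an Illumina HiSeq. The authors described alignment to mm10 with Bowtie, keeping reads with a single location and at most 2 mismatches. The submitters' processing notes name CASAVA 1.8.2, TopHat2 2.0 and GRCm38. The tool that counted reads, its annotation and its use of strand are not given in the sources used here. The deposited files hold whole-number counts per gene, not normalized, in 1 file for each tumor.

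The members and lists were chosen with earlier results of these data known. Counts were tested with edgeR 4.0.16 (R 4.3.3): TMM factors, filterByExpr (minimum count 10, minimum total 15) on each design, quasi-likelihood F-tests and Benjamini-Hochberg adjustment over all genes tested, with a threshold of 0.05. Metastatic versus primary was fitted with tumor type alone, CR versus AS with tumor type as a term, and the interaction with both. Expressed means passing the filter on the 4 combinations. The filter turns its minimum count into a CPM cutoff, so a shallow tumor passes with fewer counts. It asks for as many tumors above the cutoff as the smallest combination holds. SE is the log2 difference divided by the root of F. CPM used TMM-scaled totals, and RPKM used GENCODE M21 exon lengths, found for 36343 of 38115 genes. Shared windows were found with bwa 0.7.19. Named genes were the called members, the 12 with the highest mean RPKM, members without overlap, and, of each list, Por, Ahr, Nr1i2, Nr1i3, Ppara and up to 3 by p. Other expressed members were named where their group was described. Scripts were tested on simulated data. Alternatives were DESeq2 1.42.0, other factors, filters and thresholds, each tumor type or phenotype alone, and leaving out each tumor. Leaving out metastatic AS 2 and CR 2 together was chosen after seeing the data. The 11 symbols with a further letter or pseudogene suffix, such as Cyp4a12a, were not members. Depth was 20905806 to 91886163 counts per tumor. Some marker genes and a motif are not reported here.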

Additional observations from a re-analysis of the deposited data

Results flagged for a closer look

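Single tumors that stood far from the others were looked for in 100 groups of 4 tumors, for the 24 expressed members and the summed CPM of the 49 members under the filter, by the gap to the nearest tumor over the whole range of log2 CPM. Dixon's 95% limit is passed by chance in about 1 in 20 groups, and 9 groups passed it. Cyp4v3 was at 4.61 CPM in metastatic CR 2, against 2.40 to 2.60 in the other metastatic tumors. Cyp2u1 was at 0.718 CPM in metastatic AS 1, against 0.383 to 0.407. Cyp2f2 was at 0 CPM in primary CR 2, against 0.652 to 1.08 in the other primary tumors, and at 0.177 CPM in metastatic AS 2, against 1.04 to 1.42 in the other AS tumors. Cyp2d22 was at 0.391 CPM in primary CR 2, against 0.791 to 0.887. Cyp2j6 was at 0.355 CPM in primary AS 1, against 0.488 to 0.492, and Cyp2j9 was at 0 CPM there, against 0.146 to 0.173. Cyp4a14 was at 0.195 CPM in primary CR 2 and 0.0687 CPM in metastatic AS 2, with 0 in the tumors they were compared with.

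Cyp4f17 was higher in both AS metastases than in both AS primary tumors and lower in both CR metastases than in both CR primary tumors. The interaction was -1.11 on the log2 scale (edgeR adjusted p = 0.964). Cyp2j13 was lower in AS and higher in CR metastases, and lower in CR than AS among primary tumors but higher among metastatic ones, with an interaction of 3.61 (adjusted p = 0.964). It rests on few counts: 4 and 3 in the primary CR, 7 and 20 in the metastatic CR, 26 and 12 in the primary AS and 12 and 13 in the metastatic AS tumors. The 20 were in metastatic CR 2, which stood apart in genes with few counts. Neither gene passed the test of the difference. Both genes were picked out from the expressed members by these opposite orders. With so few tumors in each combination, such orders can also arise by chance. How often they did so over all genes was not tested, so they are given as a description only.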

How the results depend on the processing

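Members lower in CR tumors were 3, but 4 by DESeq2 and with every gene that had a count, 1 with at least 1 CPM in 4 tumors, 0 in primary tumors only, 1 in metastatic tumors only, 1 without metastatic AS 2 and CR 2 together, and 1 to 3 without each tumor. Members higher were 0, but 1 by DESeq2, 2 with every gene that had a count, and 0 to 1 without each tumor. Electron donors called were 1, but 2 by DESeq2, 0 in primary only, metastatic only or without both tumors, and 0 to 1 without each tumor. Regulators were 0, but 2 by DESeq2 or at an adjusted p under 0.1, 1 by RLE factors, every gene with a count, 1 CPM in 4 tumors, phenotype only or without mitochondrial and ribosomal RNA genes, and 0 to 3 without each tumor. Haem genes were 2, but 5 with every gene, 0 in primary only, 1 without both tumors and 2 to 4 without each. Arachidonate genes were 3, but 0 in primary only, 1 without both tumors and 2 to 4 without each. Other P450 genes were 1, but 2 by DESeq2, at 0.1 or with every gene, 0 in primary only, metastatic only or without both tumors, and 0 to 1 without each. Expressed members were 24, but 72 with any count, 13 with at least 1 CPM in 2 tumors and 26 to 29 without each tumor. The filter was looser without each tumor, as it then asked for 1 tumor above its cutoff. Calls over all genes were 2026, but 3563 by DESeq2, 3409 at 0.1, 3098 with every gene, 4 in primary only, 974 in metastatic only, 237 without both tumors, and 433 (without metastatic AS 1) to 3994 (without primary CR 1) without each. Fits of fewer tumors or genes had fewer samples or tests by construction, and the cause of the other changes was not tested.

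Signs turned for CR to AS differences that were not called. Cyp4f16 was 0.21 in primary only, 0.038 without both tumors and -0.32 to 0.063 without each. Cyp4v3 was 0.55 in metastatic only and -0.47 to 0.14 without each tumor. Cyp4b1 was -0.037 without both and -0.085 to 0.96 without each. Cyp2f2 was 0.13 with phenotype only, 1.10 in metastatic only and -2.25 to 0.42 without each. Ppara kept its sign but passed the threshold by DESeq2 and with every gene that had a count (adjusted p = 0.0268 and 0.0046). Nr1i3 was 0.080 in primary only and -1.08 to -0.39 without each. For metastatic versus primary, Cyp2b10 was 0.21 and Cyp2c70 0.89 in CR only. Without each tumor, Cyp2b10 was -2.76 to 0.014, Cyp2c70 -2.06 to 0.51, Cyp2t4 -4.71 to 0.95 and Cyp1b1 -0.41 to 1.48, the first 3 positive without primary AS 1 and Cyp1b1 negative without metastatic AS 1. The labels do not say which metastasis matches which primary tumor, so the true pairing could not be used. With each of the 4 possible pairings as a replicate block, 0 members were called. Members called between metastatic and primary tumors or by the interaction were 0 under each alternative run.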
